A study of Homo sapiens with 4 samples.

Results

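10 genes of microtubule regulation were followed in single HCC1143 cells kept in the microtubule drug paclitaxel or in its solvent. They were chosen by name, with earlier results of these data known. The list holds the stathmins STMN1 and STMN3, the lattice-binding proteins MAP1B, MAP1S, MAP4, MAP7 and MAPT, and the plus-end proteins MAPRE1, CLIP1 and CKAP5. These are 10 of the 18131 genes listed in any of the deposited tables, and all 10 were listed in every table. HCC1143 is a cultured epithelial line from a human breast tumour of the triple-negative type, grown here in RPMI1640 medium with fetal bovine serum. Its cells attached to the dish before treatment and were then profiled on the 10x Chromium platform, which counts poly(A) RNA molecules per cell by unique molecular identifiers (UMIs). The 4 groups were 1 nM paclitaxel for 24 h, DMSO for 24 h, 1 nM paclitaxel for 72 h and DMSO for 72 h, with the same line and culture in all of them. Each group was 1 library, so no test across samples exists, no difference has a replicate check, and every interval below covers counting error only.

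Microtubules are polymers of alpha- and beta-tubulin that switch between growth and shrinkage, most rapidly in the mitotic spindle. Stathmins bind free tubulin dimers and promote shrinkage, lattice-binding proteins bundle and stabilise the polymer, and plus-end proteins gather at growing ends and set the rate of growth. Paclitaxel binds beta-tubulin inside the polymer and stabilises it, and tau (MAPT) and stathmin have both been studied in breast cancer for their relation to the response to taxanes.

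The promoters of 4 of the genes, picked by their levels, are shown. STMN1, CKAP5 and MAPRE1 were highest in cells scored as G2/M, and MAP1S was the gene called higher at 72 h. Each run is the RefSeq window of GRCh38.p14 from 250 bases before to 50 bases after the annotated start, written 5′ to 3′ on the strand of the gene. Capitals mark matches, on either strand, to TTTGAA (the core of the cell cycle homology region), to TTTGGCGC or TTTCCCGC (E2F-type), and to CCAAT, and no matches overlapped. On the minus strand, TTTGAA reads TTCAAA and CCAAT reads ATTGG. The windows lie at chr1:25906370-25906669 (minus strand, the first of 3 STMN1 windows), chr11:46846231-46846530 (minus strand), chr20:32819704-32820003 (plus strand) and chr19:17719230-17719529 (plus strand).
STMN1: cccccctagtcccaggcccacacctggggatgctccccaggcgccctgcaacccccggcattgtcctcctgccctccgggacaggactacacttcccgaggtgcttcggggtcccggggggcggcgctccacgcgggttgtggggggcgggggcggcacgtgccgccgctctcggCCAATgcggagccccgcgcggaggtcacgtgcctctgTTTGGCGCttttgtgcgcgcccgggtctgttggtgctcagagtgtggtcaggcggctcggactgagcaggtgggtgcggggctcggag
CKAP5: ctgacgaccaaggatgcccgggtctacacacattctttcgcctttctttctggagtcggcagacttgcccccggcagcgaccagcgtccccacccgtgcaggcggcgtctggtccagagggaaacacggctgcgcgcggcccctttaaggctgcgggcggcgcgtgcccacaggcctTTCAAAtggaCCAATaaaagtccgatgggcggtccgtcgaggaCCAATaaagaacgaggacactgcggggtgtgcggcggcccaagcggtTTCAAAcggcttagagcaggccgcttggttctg
MAPRE1: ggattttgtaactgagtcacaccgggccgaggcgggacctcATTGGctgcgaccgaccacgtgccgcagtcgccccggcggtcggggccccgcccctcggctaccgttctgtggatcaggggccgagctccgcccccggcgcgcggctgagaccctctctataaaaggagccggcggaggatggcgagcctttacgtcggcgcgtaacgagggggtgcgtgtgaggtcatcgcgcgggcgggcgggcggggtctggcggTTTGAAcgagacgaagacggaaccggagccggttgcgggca
MAP1S: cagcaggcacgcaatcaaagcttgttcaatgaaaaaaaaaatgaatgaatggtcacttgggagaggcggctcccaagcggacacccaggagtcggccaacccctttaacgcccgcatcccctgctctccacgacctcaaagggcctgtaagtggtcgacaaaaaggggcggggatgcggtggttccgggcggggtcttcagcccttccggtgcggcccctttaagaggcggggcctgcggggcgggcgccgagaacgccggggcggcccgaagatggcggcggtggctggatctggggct
The STMN1 window held CCAAT with its first base at -75 and TTTGGCGC at -38 from the start, and another STMN1 window held TTTCCCGC at -250. In the CKAP5 window, TTTGAA stood on the minus strand at -73 and 18, and CCAAT on the plus strand at -63 and -30. MAPRE1 had CCAAT on the minus strand at -209 and TTTGAA at 10. The MAP1S window held none of these letters. Among all 35116 windows of this length, 15.2% held TTTGAA, 2.27% an E2F-type match and 34.6% CCAAT, so a match describes the letters and shows no binding. RefSeq windows were matched for 9 of the 10 genes, 16 windows in all. Matches were not limited to the genes highest in cells scored as G2/M. Windows not shown held TTTGAA for MAP1B, MAP4 and MAP7, and CCAAT for MAP4 and MAP7. MAP4 and MAP7 differed little in level between cells scored as G2/M and as G1. Any relation of these letters to the levels was not tested.

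Of 3194 barcodes, 3180 were kept, and their UMIs summed to between 34850724 and 72024235 per library, with medians of 54864 to 59670 UMIs per cell. Levels are UMIs scaled to 1000000 per library (CPM), and 0 counts in a library would set an upper limit of 0.0417 to 0.0861 CPM. Libraries are ordered by CPM wherever their levels are ranked. The median share of UMIs from ribosomal protein genes was 33.1% with paclitaxel and 27.0% with DMSO at 24 h, and 27.5% with paclitaxel and 40.6% with DMSO at 72 h. Ratios are therefore given as relative log2 ratios: log2 of the CPM ratio minus its median over all genes that averaged 50 CPM or more, which was -0.14 at 24 h and 0.32 at 72 h. A gene was called higher or lower at 1.5-fold on this scale, if it averaged 10 CPM or more and its 95% interval excluded 0. The paclitaxel and DMSO libraries at 24 h shared 4 cell barcodes, the DMSO libraries at 72 h and 24 h shared 3, and the other pairs shared 0. All 4 epithelial and all 5 basal breast markers were listed in every library. The epithelial markers summed to 1561 CPM in paclitaxel and 1211 CPM in DMSO at 24 h, and to 1990 CPM in paclitaxel and 968 CPM in DMSO at 72 h. The basal markers summed to 1724 CPM in paclitaxel and 1555 CPM in DMSO at 24 h, and to 3108 CPM in paclitaxel and 1004 CPM in DMSO at 72 h. Both sums were highest in paclitaxel at 72 h and lowest in DMSO at 72 h, as were the MAP1S and MAP1B levels. Of 8 neuronal markers, 1 to 4 were listed, summing to 2.66 to 6.28 CPM, and NEFL, NEFM, GAP43 and ELAVL4 were listed in no library. Of 4 immune markers, 1 to 3 were listed, and their sum was 6.70 CPM in paclitaxel and 6.07 CPM in DMSO at 24 h, and 20.4 CPM in paclitaxel and 5.77 CPM in DMSO at 72 h. Nearly all of the high sum was CD68 (19.6 CPM), a lysosomal protein gene, and CD3E was listed in no library. The part of these marker sums in the results was not tested.

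At 24 h none of the genes was called, and most of their ratios were near the median of all genes. CKAP5 was lower, at -0.22 (-0.30 to -0.13), and a MAPT difference was too low in level to call. Of the 9 genes past 10 CPM, 0 were called higher, against 6.35% of the 8096 genes tested, and 0 lower, against 1.22%. Their median relative log2 ratio was -0.01, and that of all genes tested was 0.00. At 72 h MAP1S was called higher and MAP1B lay just under the limit. Here all 10 passed 10 CPM: 1 was called higher, against 9.94% of 8306 genes, and 0 lower, against 9.49%. The median over the genes was 0.04 at 72 h, and over all genes tested it was -0.04. Shares so near the background give no result about the genes as a group, and they are described one by one. Without the median, 4 of the 10 passed 1.5-fold as higher at 72 h, against 25.2% of genes.

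**Figure D1:**
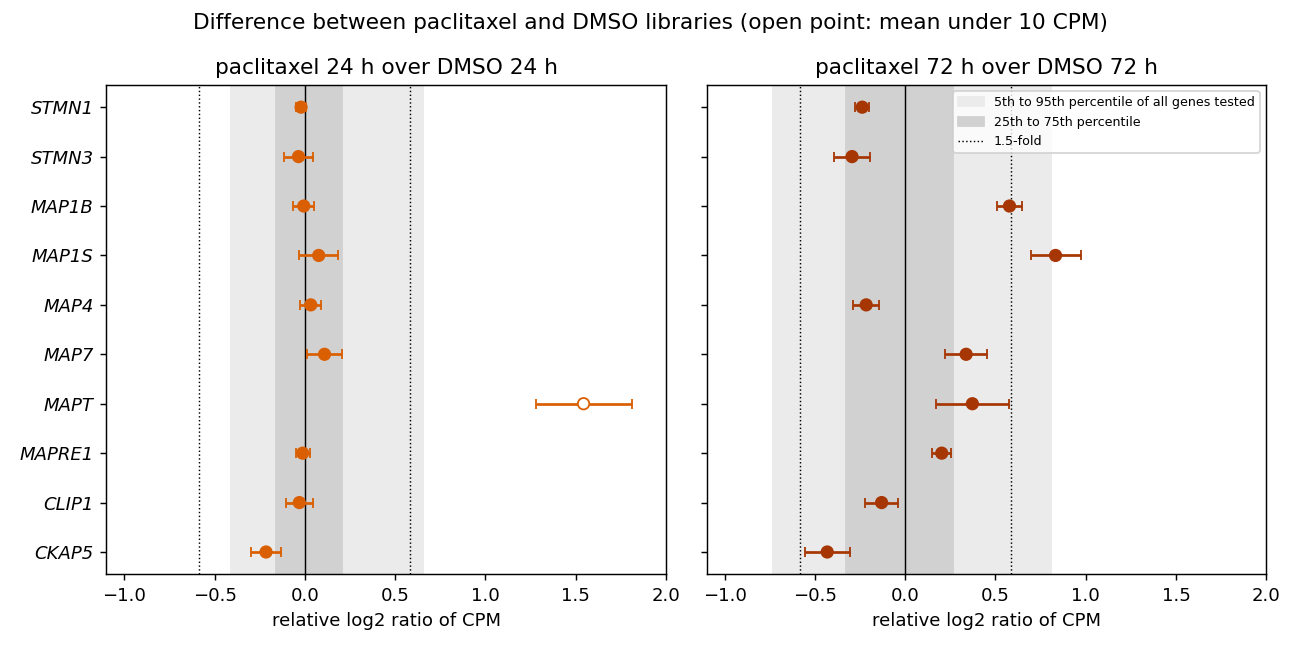
Relative log2 ratio of CPM (x axis) of each gene for paclitaxel over DMSO at 24 h (left) and 72 h (right), with points for the ratio, bars for its 95% counting interval, grey bands for percentiles of all genes tested and dotted lines at 1.5-fold. The open point at 24 h is MAPT at 1.54 with a mean under 10 CPM, and at 72 h MAP1S at 0.83 lies past the dotted line with MAP1B at 0.58 just short of it.

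STMN1 encodes stathmin, the destabiliser that mitotic kinases switch off by phosphorylation, and lies at chr1:25884181-25906991 on the minus strand (GENCODE release 29, GRCh38). It was at 338 CPM in paclitaxel against 377 CPM in DMSO at 24 h, and at 253 CPM in paclitaxel against 239 CPM in DMSO at 72 h. In CPM, the difference between times exceeded that between treatments, and both 24 h libraries lay above both 72 h libraries. The interval of the ratio excluded 0 for every neighbouring pair in that order. By relative log2 ratio, DMSO at 72 h over DMSO at 24 h was -0.25 (-0.28 to -0.22), about as large as the treatment difference at 72 h below. With factors from the trimmed mean of M-values (TMM) that ratio between times was -0.52 (-0.55 to -0.49). For paclitaxel over DMSO, the relative log2 ratio of STMN1 was -0.02 (-0.05 to 0.01) at 24 h and -0.24 (-0.28 to -0.20) at 72 h. The sign at 72 h rests on the scaling: the ratio was 0.08 without the median, and -0.23 (-0.27 to -0.19) with TMM factors. STMN1 has 2 annotated processed pseudogenes, STMN1P1 and STMN1P2, which were in no table, so reads of such copies cannot be told apart from those of the gene.

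STMN3, a stathmin family gene best known from neurons, lies at chr20:63639705-63657682 on the minus strand. Its level was 38.2 CPM in paclitaxel against 43.1 CPM in DMSO at 24 h, and 39.4 CPM in paclitaxel against 38.7 CPM in DMSO at 72 h. In CPM, DMSO at 24 h was the highest library, and the other 3 were not separated by their intervals. This order turned with the scaling: the relative log2 ratio of DMSO at 72 h over DMSO at 24 h was 0.25 (0.17 to 0.34). Relative log2 ratios were -0.04 (-0.12 to 0.04) at 24 h and -0.29 (-0.40 to -0.19) at 72 h. Without the median the 72 h ratio was 0.03, so its direction also turned with the scaling. With TMM factors the 72 h ratio was -0.28 (-0.38 to -0.18). Neither stathmin gene was called at either time.

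MAP1S encodes a widely expressed relative of MAP1B that binds microtubules and has been linked to mitochondria and autophagy, and lies at chr19:17719242-17734516 on the plus strand. At 24 h it was at 21.2 CPM in paclitaxel and 22.2 CPM in DMSO, and at 72 h at 31.8 CPM in paclitaxel and 14.3 CPM in DMSO. Paclitaxel at 72 h was thus the highest library and DMSO at 72 h the lowest, with both 24 h libraries between them and not separated from each other. The relative log2 ratio was 0.08 (-0.03 to 0.19) at 24 h and 0.83 (0.70 to 0.97) at 72 h, a 1.78-fold relative difference. This placed MAP1S at the 95.3rd percentile of all genes tested at 72 h. Against the DMSO 24 h library, the paclitaxel 72 h level had a relative log2 ratio of 0.56 (0.44 to 0.67), which was under 1.5-fold.

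Cells with a MAP1S UMI were also more frequent with paclitaxel at 72 h. After each cell was thinned to 20000 UMIs, which left 750, 1080, 481 and 766 cells in the paclitaxel 24 h, DMSO 24 h, paclitaxel 72 h and DMSO 72 h libraries, the share with a MAP1S UMI was 41.6% (37.1% to 46.1%) with paclitaxel and 23.5% (20.5% to 26.7%) with DMSO at 72 h. At 24 h the thinned shares were 33.5% with paclitaxel and 34.4% with DMSO. Over all UMIs of the kept cells, the shares were 71.5% with paclitaxel and 54.2% with DMSO at 72 h. Free RNA can add such UMIs, and in a single cell line no cell type lacks the gene, so its part in the shares was not tested.

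MAP1B, a large lattice-binding protein prominent in growing axons, lies at chr5:72107234-72209570 on the plus strand. It was at 75.2 CPM in paclitaxel against 83.3 CPM in DMSO at 24 h, and at 113 CPM in paclitaxel against 60.6 CPM in DMSO at 72 h. In CPM, all neighbouring levels were separated by their intervals, with paclitaxel at 72 h highest and DMSO at 72 h lowest, as for MAP1S. By relative log2 ratio, DMSO at 72 h was not separated from DMSO at 24 h (-0.05, -0.11 to 0.02). The relative log2 ratio was -0.01 (-0.06 to 0.05) at 24 h and 0.58 (0.51 to 0.65) at 72 h. That is 1.49-fold, just under the limit, and 7 of the 12 alternatives at 72 h put it past 1.5-fold, 1 of them with only cells called G2/M. The share of thinned cells with a MAP1B UMI was 64.9% with paclitaxel against 72.4% with DMSO at 24 h, and 69.4% with paclitaxel against 57.7% with DMSO at 72 h.

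**Figure D2:**
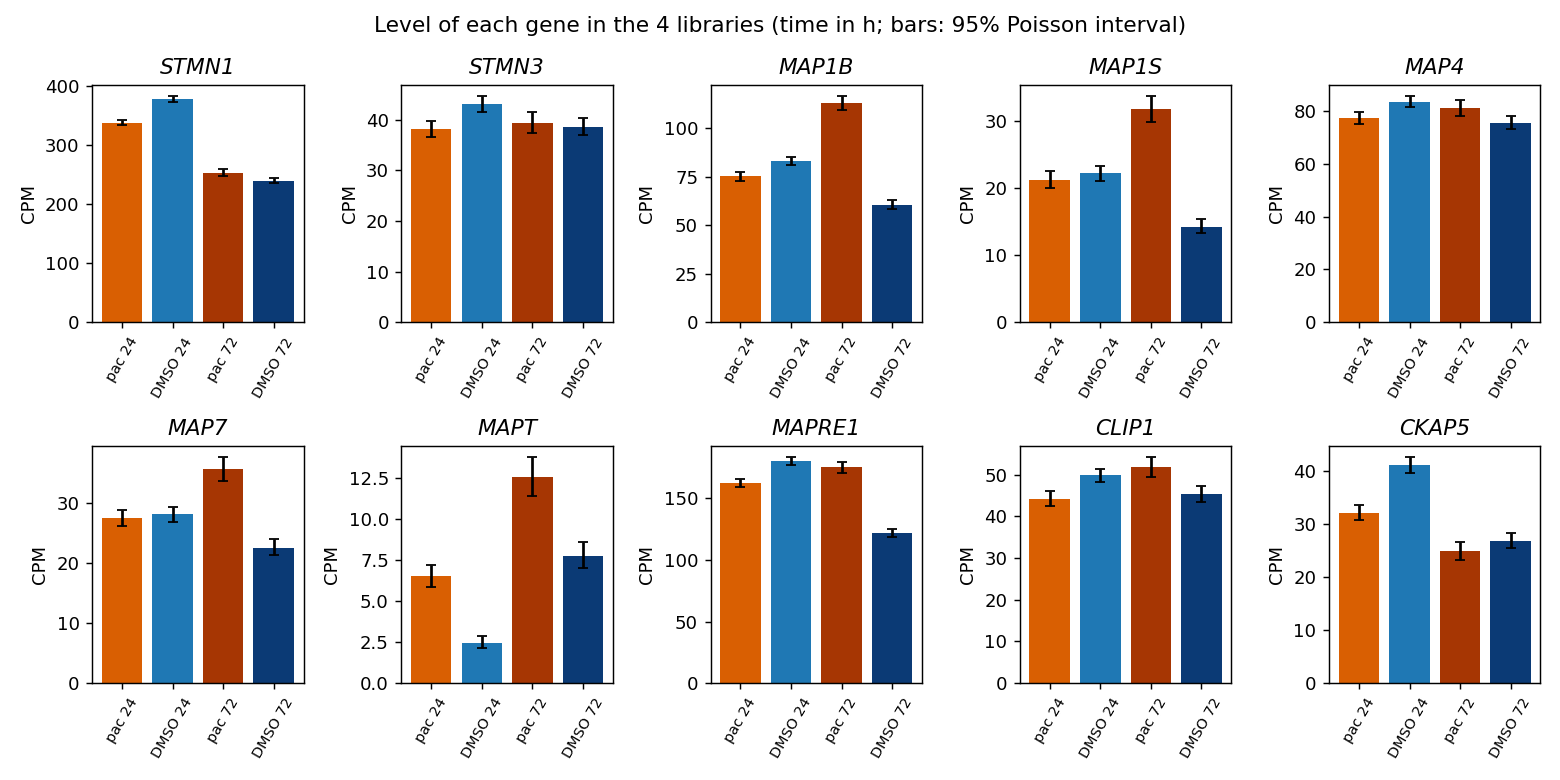
Level in CPM (y axis) of each gene in the paclitaxel (pac) 24 h, DMSO 24 h, paclitaxel 72 h and DMSO 72 h libraries, with bars for the level over all kept cells and error bars for the 95% Poisson interval. The paclitaxel 72 h bar is the highest for MAP1B (113 CPM), MAP1S (31.8 CPM) and MAPT (12.5 CPM), while STMN1 and CKAP5 are higher in both 24 h libraries than in either 72 h library.

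MAP4, the main lattice-binding protein of many non-neuronal cells, varied least in CPM, and lies at chr3:47850690-48089272 on the minus strand. It was at 77.4 CPM in paclitaxel against 83.4 CPM in DMSO at 24 h, and at 81.1 CPM in paclitaxel against 75.4 CPM in DMSO at 72 h. No pair of neighbours in the order of its 4 levels was separated by the interval of their ratio. The highest library, DMSO at 24 h (81.3 to 85.5 CPM), and the lowest, DMSO at 72 h (73.0 to 77.9 CPM), did not overlap. By relative log2 ratio, DMSO at 72 h instead lay above DMSO at 24 h (0.27, 0.21 to 0.33). Relative log2 ratios were 0.03 (-0.02 to 0.09) at 24 h and -0.22 (-0.29 to -0.15) at 72 h, and without the median they were -0.11 and 0.10, so both signs turned. With TMM factors they were 0.00 at 24 h and -0.20 at 72 h.

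MAP7, which recruits kinesin motors to the polymer, lies at chr6:136342281-136550819 on the minus strand. Its levels were 27.5 CPM in paclitaxel against 28.1 CPM in DMSO at 24 h, and 35.6 CPM in paclitaxel against 22.6 CPM in DMSO at 72 h. In CPM the 24 h libraries were not separated, paclitaxel at 72 h lay above them and DMSO at 72 h below. By relative log2 ratio, DMSO at 72 h was not separated from DMSO at 24 h (0.10, -0.01 to 0.20). For paclitaxel over DMSO the relative log2 ratio of MAP7 was 0.11 (0.01 to 0.21) at 24 h and 0.34 (0.22 to 0.46) at 72 h. Both were under 1.5-fold, and the 24 h ratio turned to -0.03 without the median.

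MAPT encodes tau, the axonal lattice-binding protein, and lies at chr17:45894382-46028334 on the plus strand. It was at 6.50 CPM (5.85 to 7.21) with paclitaxel against 2.46 CPM (2.11 to 2.85) with DMSO at 24 h. At 72 h it was at 12.5 CPM (11.4 to 13.8) with paclitaxel against 7.76 CPM (7.001 to 8.58) with DMSO. All neighbouring levels were separated by the interval of their ratio, and at both times the paclitaxel library was above its DMSO library. The relative log2 ratio was 1.54 (1.28 to 1.81) at 24 h, where the mean was under 10 CPM and no call was made, and 0.37 (0.17 to 0.57) at 72 h, which is under 1.5-fold. With no minimum level the 24 h difference counted as higher, as did 9.45% of 18131 genes.

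MAPT was seen in a minority of cells. The thinned share with a UMI was 13.3% (10.98% to 15.98%) with paclitaxel against 5.28% (4.02% to 6.78%) with DMSO at 24 h, and 18.1% (14.7% to 21.8%) with paclitaxel against 12.4% (10.2% to 14.9%) with DMSO at 72 h. Over all UMIs the shares were 31.6% with paclitaxel against 12.5% with DMSO at 24 h, and 41.3% with paclitaxel against 32.4% with DMSO at 72 h. No thinned cell of any library held more than 5 UMIs of the gene. STH, a gene within MAPT on the same strand, was listed in 2 tables at 0.172 CPM or less. Among neuronal markers the highest was SYP, at 2.76 CPM in paclitaxel against 3.03 CPM in DMSO at 24 h, and at 4.65 CPM in paclitaxel against 2.38 CPM in DMSO at 72 h.

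**Figure D3:**
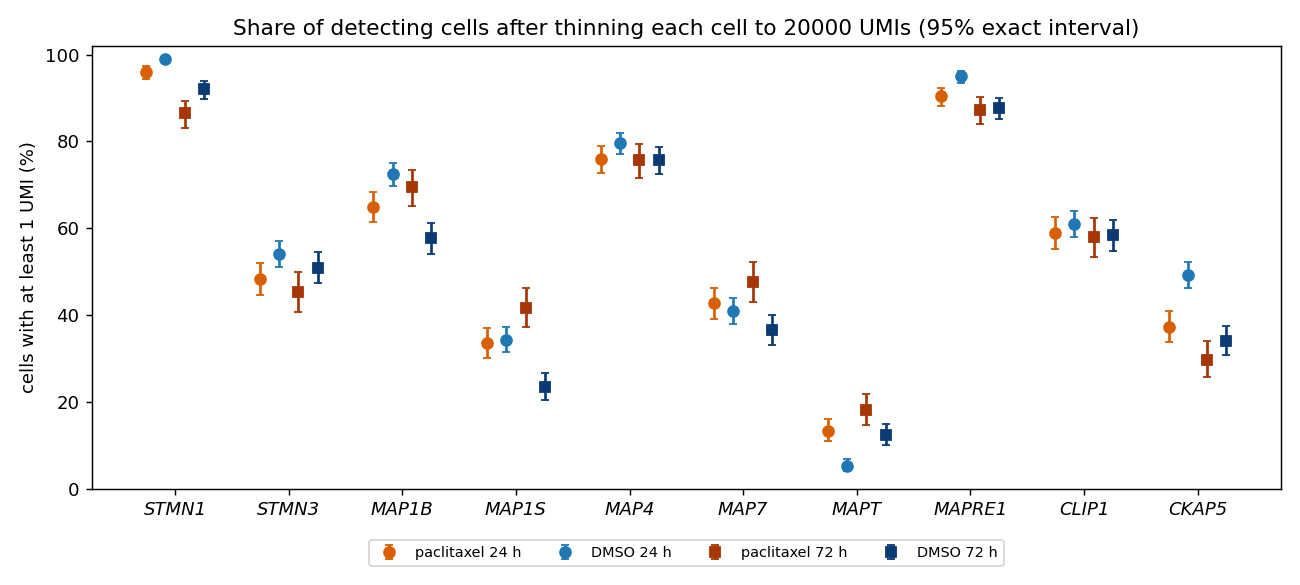
Share of cells with at least 1 UMI of each gene (y axis, %) after every cell was thinned to 20000 UMIs, with points for the 4 libraries and bars for the 95% exact binomial interval. The MAP1S interval of paclitaxel at 72 h (37.1% to 46.1%) lies above that of DMSO at 72 h (20.5% to 26.7%), and for MAPT the paclitaxel 24 h point (13.3%) lies above DMSO 24 h (5.28%).

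MAPRE1 encodes EB1, the end-binding protein on which most other plus-end proteins assemble, and lies at chr20:32819893-32850405 on the plus strand. It was at 162 CPM in paclitaxel against 181 CPM in DMSO at 24 h, and at 175 CPM in paclitaxel against 122 CPM in DMSO at 72 h. DMSO at 72 h was the low library, and DMSO at 24 h and paclitaxel at 72 h were not separated. Relative log2 ratios were -0.01 (-0.05 to 0.03) at 24 h and 0.20 (0.15 to 0.25) at 72 h. Against the DMSO 24 h library, the paclitaxel 72 h ratio was 0.00 (-0.05 to 0.04). Pseudogenes MAPRE1P1 and MAPRE1P3 were in no table, so their reads cannot be told apart from those of the gene.

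CLIP1 encodes a linker of growing ends to vesicles and cortex, and lies at chr12:122271432-122422632 on the minus strand. Its levels were 44.2 CPM in paclitaxel against 49.8 CPM in DMSO at 24 h, and 51.8 CPM in paclitaxel against 45.4 CPM in DMSO at 72 h. In order of CPM, paclitaxel 72 h and DMSO 24 h were not separated, nor were DMSO 72 h and paclitaxel 24 h. By relative log2 ratio, DMSO at 72 h lay above DMSO at 24 h (0.28, 0.20 to 0.35), but with TMM factors they were not separated (0.00, -0.07 to 0.08). Relative log2 ratios were -0.03 (-0.11 to 0.04) at 24 h and -0.13 (-0.22 to -0.04) at 72 h, and the sign at 72 h turned to 0.19 without the median. With TMM factors the 72 h ratio was -0.12 (-0.21 to -0.03). CLIP1-AS1, on the opposite strand, was at 0.631 CPM or less.

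CKAP5 encodes ch-TOG, the polymerase that adds tubulin at growing ends and is needed for spindle assembly, and lies at chr11:46743048-46846308 on the minus strand. It was at 32.1 CPM in paclitaxel against 41.1 CPM in DMSO at 24 h, and at 24.8 CPM in paclitaxel against 26.8 CPM in DMSO at 72 h. Both paclitaxel libraries were below their DMSO library, though the 72 h pair was not separated before the median was subtracted. The relative log2 ratio was -0.22 (-0.30 to -0.13) at 24 h and -0.43 (-0.56 to -0.31) at 72 h, the lowest of the 10 genes at both times. With the DMSO 24 h library as the comparison, paclitaxel at 72 h gave CKAP5 a ratio of -0.69 (-0.80 to -0.58), and it was then the 1 gene of 9 called lower, against 10.3% of genes, while 0 were called higher, against 17.7%. With TMM factors, CKAP5 (-0.90, -1.01 to -0.79) and STMN1 (-0.75, -0.78 to -0.71) were both called lower in that comparison, against 18.9% of genes. The thinned share of cells with a CKAP5 UMI was 37.3% with paclitaxel against 49.2% with DMSO at 24 h, and 29.7% with paclitaxel against 34.1% with DMSO at 72 h.

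The ratio of paclitaxel to DMSO differed between the times for several genes. As relative log2 ratio at 72 h minus that at 24 h, the change was 0.76 (0.58 to 0.93) for MAP1S, 0.58 (0.49 to 0.67) for MAP1B and -1.17 (-1.499 to -0.85) for MAPT. It lay between -0.26 and 0.23 for the other 7 genes. The MAPT change rests on its 24 h ratio, for which no call was made because the mean was under 10 CPM. In CPM, for MAP1S and MAP1B the paclitaxel library was higher and the DMSO library lower at 72 h than at 24 h, while for MAPT both were higher at 72 h.

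Between times, paclitaxel at 72 h over paclitaxel at 24 h gave relative log2 ratios of 0.52 for MAP1S (0.40 to 0.64) and 0.52 for MAP1B (0.46 to 0.59), and DMSO at 72 h over DMSO at 24 h gave -0.23 (-0.36 to -0.10) and -0.05 (-0.11 to 0.02). STMN1 was at -0.48 in the paclitaxel pair and -0.25 in the DMSO pair, and CKAP5 at -0.43 and -0.21. MAPT was at 0.89 in the paclitaxel pair and 2.07 in the DMSO pair, with means under 10 CPM in both. None of the 9 genes past 10 CPM was called in either pair: 0 higher against 9.97% and 0 lower against 3.67% of genes in the paclitaxel pair, and 0 higher against 17.7% and 0 lower against 5.57% in the DMSO pair. These counts depended on the scaling. With TMM factors, STMN1 (-0.70) and CKAP5 (-0.65) were called lower in the paclitaxel pair, against 10.1% of genes. With no median subtracted, MAP1B (0.59) was called higher in the paclitaxel pair, against 12.2% of genes, and STMN1 (-0.66), MAP1S (-0.64) and CKAP5 (-0.62) lower in the DMSO pair, against 25.1%. With TMM factors the signs of STMN3, MAP4 and MAP7 turned in the DMSO pair, and those of MAP4, MAPRE1 and CLIP1 in the paclitaxel pair. CLIP1 was at 0.00 in the DMSO pair with these factors.

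Cell cycle ranges were scored from S phase and G2/M phase lists of 43 and 53 genes that hold none of the 10 genes, in the thinned cells. Cells called G2/M made up 41.6% with paclitaxel against 58.5% with DMSO at 24 h, and 24.7% with paclitaxel against 31.9% with DMSO at 72 h. Cells called G1, which are those low on both lists, made up 41.1% with paclitaxel against 16.5% with DMSO at 24 h, and 69.4% with paclitaxel against 55.7% with DMSO at 72 h. These are ranges of a score and not cell types, and 10.8% to 13.1% of cells lay within 0.05 of the border. The list gene MKI67, a marker of proliferation, was at 89.4 CPM in paclitaxel against 161 CPM in DMSO at 24 h, and at 42.8 CPM in paclitaxel against 69.6 CPM in DMSO at 72 h, over all cells.

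STMN1, CKAP5 and MAPRE1, whose promoters are shown above, had higher levels in cells called G2/M than in cells called G1 in every library. The log2 ratio of G2/M to G1 for CKAP5 was 1.66 with paclitaxel and 1.53 with DMSO at 24 h, and 1.31 with paclitaxel and 1.86 with DMSO at 72 h. For STMN1 it was 1.37 with paclitaxel and 0.75 with DMSO at 24 h, and 1.72 with paclitaxel and 1.49 with DMSO at 72 h. MAPRE1 had lower ratios, between 0.38 and 0.63. MAPT went the other way, at -1.17 with paclitaxel and -0.97 with DMSO at 24 h, and -0.37 with paclitaxel and -0.74 with DMSO at 72 h. Across cells, the Spearman correlation with the G2/M score lay between 0.28 and 0.66 for STMN1, 0.24 and 0.40 for CKAP5, and 0.12 and 0.27 for MAPRE1, over 481 to 1080 cells per library that share depth and library.

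**Figure D4:**
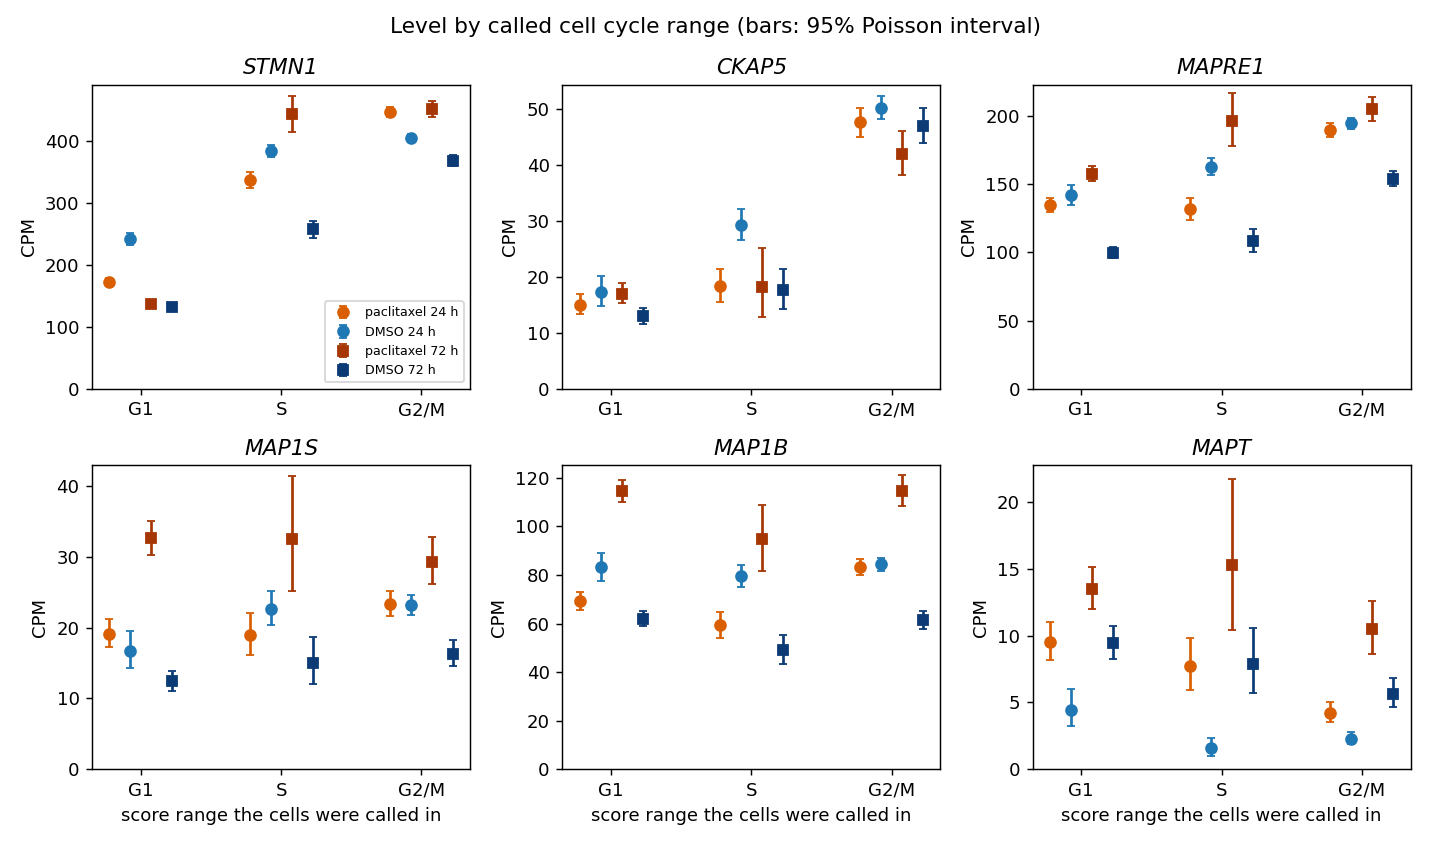
Level in CPM (y axis) in cells called G1, S and G2/M (x axis) for 6 of the genes, with a point for each of the 4 libraries and bars for the 95% Poisson interval. STMN1, CKAP5 and MAPRE1 are higher in G2/M than in G1 in all 4 libraries, MAPT is lower, and MAP1B with paclitaxel at 72 h stands at 115 CPM in both.

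Between the called ranges, the CKAP5 ratio at 24 h was not uniform. In cells called G2/M, CKAP5 was at 47.6 CPM in paclitaxel against 50.2 CPM in DMSO at 24 h, a relative log2 ratio of 0.00 (-0.10 to 0.10), and in cells called G1 it was -0.12 (-0.40 to 0.17). In cells called S it was at 18.3 CPM in paclitaxel against 29.2 CPM in DMSO, a ratio of -0.47 (-0.74 to -0.20). At 72 h the ratio was -0.45 (-0.62 to -0.29) in cells called G2/M, 0.04 (-0.18 to 0.26) in cells called G1 and -0.34 (-0.93 to 0.22) in cells called S. STMN1 at 24 h was at 173 CPM in paclitaxel against 242 CPM in DMSO in cells called G1 (-0.40), and at 448 CPM in paclitaxel against 406 CPM in DMSO in cells called G2/M (0.22). The values in these ranges had opposite signs, and in cells called S the ratio was 0.02. At 72 h STMN1 was at -0.28 in cells called G1, 0.39 in cells called S and 0.00 in cells called G2/M.

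The MAP1S and MAP1B differences at 72 h stood within cells called G1 and within cells called G2/M. MAP1S was at 32.6 CPM in paclitaxel against 12.4 CPM in DMSO in cells called G1 (1.04, 0.85 to 1.24), and at 29.3 CPM in paclitaxel against 16.3 CPM in DMSO in cells called G2/M (0.55, 0.32 to 0.78). MAP1B was at 115 CPM in paclitaxel against 62.0 CPM in DMSO in cells called G1 (0.54, 0.45 to 0.63), and at 115 CPM in paclitaxel against 61.4 CPM in DMSO in cells called G2/M (0.61, 0.49 to 0.73). The gene called higher was thus MAP1S in cells called G1 and in cells called S (0.72, 0.23 to 1.20), and MAP1B in cells called G2/M. Only 28 cells with paclitaxel at 72 h were called S, and 1 of them held 24 of the MAP1S UMIs. The MAP1S level in cells called S was 32.5 CPM with that cell and 21.5 CPM without it, against 15.1 CPM in DMSO. Without that cell the difference was under 1.5-fold even before the median in cells called S (0.39) was subtracted. The call of MAP1S in cells called S thus rests on 1 cell. The log2 ratio of G2/M to G1 for MAP1S was 0.29 with paclitaxel and 0.47 with DMSO at 24 h. At 72 h it was -0.15 with paclitaxel and 0.39 with DMSO. For STMN3, MAP4, MAP7 and CLIP1 the log2 ratio of G2/M to G1 lay between -0.22 and 0.19 in all libraries.

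All 10 genes varied most from cell to cell in the paclitaxel 72 h library, by the variance of thinned UMIs over their mean. This ratio for STMN1 was 3.79 with paclitaxel against 2.76 with DMSO at 24 h, and 9.26 with paclitaxel against 4.03 with DMSO at 72 h. For MAP1B it was 2.22 with paclitaxel against 1.79 with DMSO at 24 h, and 3.69 with paclitaxel against 2.33 with DMSO at 72 h. The same library was the highest for 87.1% of 8214 genes, so the pattern was shared by most genes. Of the STMN1 values there, 1 cell held 98 thinned UMIs of the gene where the next held 29; it had 23852 UMIs in all and 8.49% ribosomal UMIs. Without that cell the STMN1 ratio was 5.55 and its level 249.9 CPM in place of 253 CPM.

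**Figure D5:**
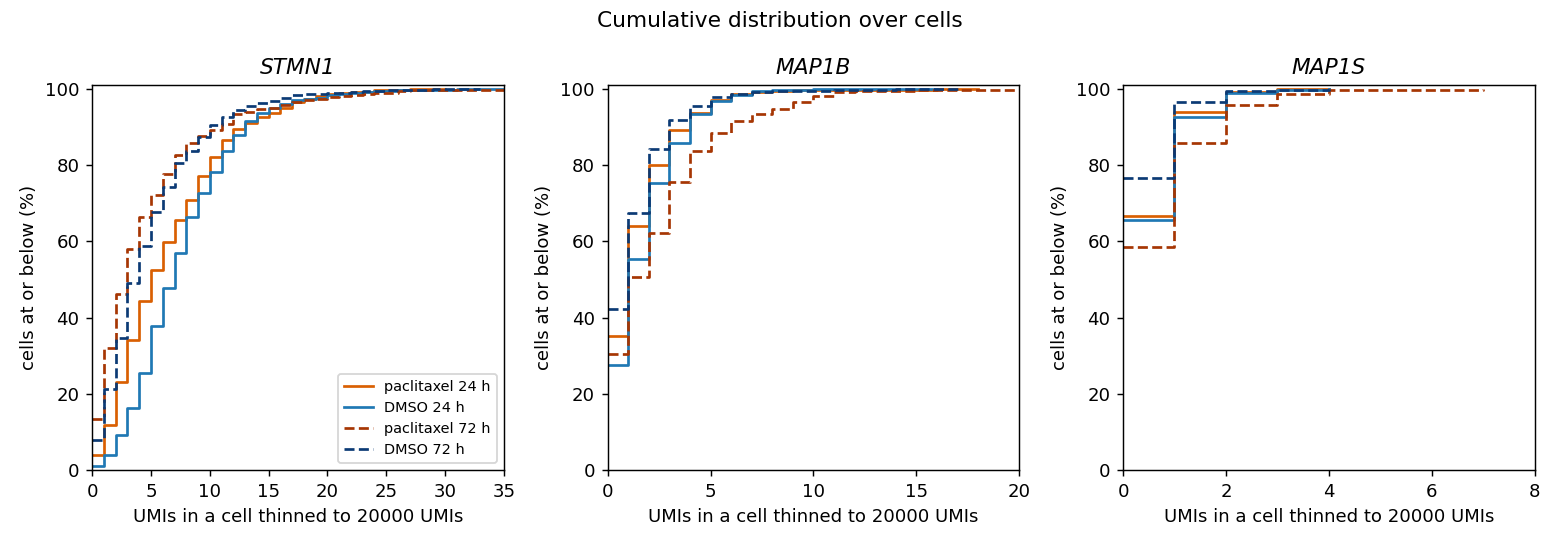
Cumulative share of cells (y axis, %) at or below each number of UMIs (x axis) after thinning to 20000 UMIs, for STMN1, MAP1B and MAP1S, with a line for each library. For STMN1 both 72 h lines lie left of the 24 h lines up to the median (3 UMIs with paclitaxel and 4 with DMSO at 72 h, 5 with paclitaxel and 7 with DMSO at 24 h), and for MAP1B the paclitaxel 72 h line reaches furthest right, with a 90th percentile of 6 UMIs; the STMN1 axis leaves out 1 cell at 98 UMIs.

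In STMN1 the median of thinned cells was 5 UMIs with paclitaxel against 7 with DMSO at 24 h, and 3 with paclitaxel against 4 with DMSO at 72 h. Its 10th percentile was 1 with paclitaxel against 3 with DMSO at 24 h, and 0 with paclitaxel against 1 with DMSO at 72 h, while the 90th percentiles were 13 with either treatment at 24 h, and 11 with paclitaxel against 10 with DMSO at 72 h. At 24 h the treatments thus differed at the 10th percentile and not at the 90th, and at 72 h they differed by 1 UMI at both, in opposite directions. The thinned share of cells with an STMN1 UMI was 96.0% with paclitaxel against 99.0% with DMSO at 24 h, and 86.5% with paclitaxel against 92.0% with DMSO at 72 h.

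Of the 10 genes, STMN1, MAP1B, MAP4 and MAPRE1 averaged at least 1 thinned UMI per cell in all libraries, and were compared with 1997 genes by Spearman correlation across the thinned cells of each library. The genes most like STMN1 by their lowest value over the 4 libraries were HMGB1, a chromatin protein gene (0.41), SNRPB, a splicing factor gene (0.35), and H2AFZ, a histone variant gene (0.34). MAPRE1 was most like TPX2, a spindle assembly factor gene (0.22). No gene reached 0.2 in all libraries with MAP1B or MAP4. Among the 10 genes themselves, the highest correlations in any library were those of STMN1 with MAPRE1 (0.13 to 0.30) and STMN1 with CKAP5 (0.09 to 0.28). By the lowest value over the libraries, MAPRE1 with CKAP5 (0.10 to 0.16) lay above STMN1 with CKAP5. In counts this sparse such values are no finding.

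Of 73 other microtubule genes, 68 were listed and 46 passed 10 CPM at each time. At 24 h, 2 of the 46 were called higher, against 6.35% of all genes tested, and 1 was lower, against 1.22%. Their median was -0.08. Counts this near the background give no result about the list at either time, and its genes are only described. MAP2, the dendritic lattice-binding protein gene, was at 19.7 CPM in paclitaxel against 10.9 CPM in DMSO (relative log2 ratio 0.99), and EML2 at 22.7 CPM in paclitaxel against 16.3 CPM in DMSO (0.62). KATNAL1, of the katanin severing family, was at 12.5 CPM in paclitaxel against 21.7 CPM in DMSO (-0.65). The next highest were the plus-end genes CLIP4 (0.49) and TACC2 (0.40), and the next lowest GTSE1 (-0.55), SVBP (-0.46) and TPX2 (-0.42), none of which passed 1.5-fold.

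At 72 h, 2 of the 46 were called higher, against 9.94% of all genes tested, and 4 were lower, against 9.49%. Their median was -0.15. KATNA1, a katanin catalytic subunit gene, was at 29.2 CPM in paclitaxel against 14.1 CPM in DMSO (0.73), and EML2 at 40.2 CPM in paclitaxel against 20.2 CPM in DMSO (0.67). GTSE1, which encodes a mitotic partner of EB1 and is on the G2/M list, had the lowest ratio of the list (-0.94). EML3 was at -0.84, the spindle pole gene NUMA1 at -0.69 and AGBL5, a tubulin deglutamylase gene, at -0.60. MAP7D1 (0.54) and KATNBL1 (0.46) were the next highest and did not pass 1.5-fold. Among the 13 plus-end genes of this list past 10 CPM at 72 h, 0 were higher and 1 was lower. Among its 15 lattice-binding genes 1 was higher and 2 were lower. The shares of all genes for both sets were again 9.94% higher and 9.49% lower.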

How the data were processed

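The values deposited by the authors are raw UMI counts per gene symbol and cell barcode, 1 table per library, with no normalization. The submitters' processing notes name Cell Ranger 2.0 and GRCh38; how cells were picked was not given in the sources used here. The deposited tables list only genes seen in 1% or more of their cells. Barcodes with at least 500 genes and under 20% mitochondrial UMIs were kept, and 14 were left out. No doublet caller was run; leaving out cells over 100000 UMIs was an alternative. UMIs were summed per library and scaled to CPM. Levels have exact Poisson intervals, and ratios and shares exact Clopper-Pearson intervals. Intervals of the change in ratio from 24 h to 72 h are normal approximations on the log scale. Where a gene was missing from 1 table, its bound was used. Shares, spread and scores use cells thinned to 20000 UMIs (seed 1), with scanpy 1.11.5 for scores. TMM factors came from edgeR 4.0.16, and scripts ran in Python 3.11.15 with scipy 1.17.1. The calling rule was run on simulated Poisson counts, which hold counting error only and cannot show variation between libraries. All 10 genes are named; of the other microtubule genes, the 4 highest and 4 lowest at each time; of like genes, the 3 nearest with a correlation of at least 0.2. The genes and lists were chosen with earlier results of these data known. The use of strand in counting was not given either, so reads of a gene and of an antisense partner cannot be told apart.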

Additional observations from a re-analysis of the deposited data

How the results depend on the processing

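At 24 h, 0 genes were called lower under every alternative run, and 0 higher under all but 1: with no minimum mean, 1 (MAPT) was higher. At 72 h, where 1 gene (MAP1S) was called higher, the count was 4 with no median subtracted (MAP1B, MAP1S, MAP7 and MAPT). It was 2 (MAP1B and MAP1S) with TMM factors, with totals free of ribosomal and mitochondrial UMIs, with the mean of per-cell CPM, with thinned cells and without cells over 100000 UMIs. It was 0 with a minimum mean of 50 CPM, which leaves MAP1S out, and 0 with DMSO at 24 h as the control. With that control 1 gene (CKAP5) was called lower in place of 0, and with TMM factors as well it was 2 (STMN1 at -0.75 and CKAP5 at -0.90). The cause of the other changes was not tested. The relative log2 ratio of MAP1S at 72 h ranged from 0.55 to 1.15 over 12 alternatives, that of MAP1B from 0.48 to 0.90, and that of MAPT at 24 h from 0.97 to 2.50 over 11. Ratios between times under other scalings, which changed the calls of STMN1, CKAP5, MAP1S and MAP1B, and the background with no minimum were chosen after seeing the data. No paired analysis was possible because each group is 1 library and no result comes from a test. Depth limits MAPT most, with 177 to 437 UMIs per library.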
